A study of Mus musculus with 16 samples.

Results

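Aminoacyl-tRNA synthetases were followed across 16 microarrays of primary mouse lung fibroblasts in which lysyl oxidases had been knocked down. The enzymes were taken by gene name: a capital letter followed by "ars", with or without a final 2, together with Eprs, Farsa and Farsb. This selected 47 probes of 55681 non-control probes, which stood for 37 genes of 34650 names. Of these genes, 20 encode cytosolic enzymes, and 17, whose names end in 2, encode mitochondrial enzymes. The rule itself uses gene names and no measured value. All 47 probes passed the detection filter, which 58.2% of all probes passed, and 46 were well above background on all 16 arrays. The remaining probe, that of Nars2, was above background on 0 of 4 scr, 0 of 4 siLox, 4 of 4 siLoxL1 and 3 of 4 siLoxL2 arrays, so its values on the first slide are near the background, and it passed the filter through siLoxL1 alone.

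A synthetase joins an amino acid to its transfer RNA (tRNA), the step that sets which amino acid the ribosome reads into a codon. Cytosol and mitochondria are mostly served by separate nuclear genes, although Gars (glycine) and Kars (lysine) make the enzyme for both compartments and were counted here as cytosolic. Several cytosolic synthetases sit together in a multisynthetase complex held by the scaffold proteins Aimp1, Aimp2 and Eef1e1. When amino acids run short or the endoplasmic reticulum is stressed, the transcription factor ATF4 raises many cytosolic synthetase genes through C/EBP-ATF response elements in their promoters. Wars (tryptophan) is known to be induced by interferon gamma, and Eprs (glutamate and proline) takes part in an interferon-induced block of translation.

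The fibroblasts had been passaged at least 3 times and were harvested 48 hours after siRNA transfection, with 4 arrays in each of 4 groups. The control group, scr, received a scrambled siRNA. In siLox the target was Lox, in siLoxL1 it was Loxl1, and in siLoxL2 it was Loxl2. The labels used here name no mouse strain, age or number of donors, and do not say whether the 4 replicates were separate cultures, so p-values measure the spread between these arrays, which may be technical. Every sample label describes knockdown, although exogenous expression is what the title of the series names. The scr and siLox arrays lay on slide 1 and the siLoxL1 and siLoxL2 arrays on slide 2. By the array barcodes, scr and siLoxL1 lay in row 1 of their slide, and siLox and siLoxL2 in row 2. Group and row thus cannot be told apart within a slide.

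The share of spots with signal well above background was 49.2% to 52.3% per array for slide 1 and 60.4% to 63.1% per array for slide 2. Each targeted gene was lower than in scr in its own knockdown group, but falls were not confined to the target. Lox, which cross-links collagen and elastin, fell by 2.92 (log2, SE 0.31) in siLox to 13.2% of scr on average (limma adjusted p = 0.00319). The fall was uneven: Lox read 0.39, 0.89, 1.25 and 2.04 in siLox replicates 1 to 4, against 4.16, 4.08, 4.15 and 3.88 in scr. Loxl1 was lower in siLoxL1 than in siLoxL2, with a difference of -1.15 (SE 0.06, adjusted p = 0.000215). Loxl2 read 5.59 to 5.81 in siLoxL1 and 5.25 to 5.58 in siLoxL2, without overlap, but did not pass (adjusted p = 0.055). In siLox, Loxl1 and Loxl2 also fell, by 0.49 and 0.71. Against scr, where siRNA and slide cannot be told apart, Loxl2 gave -0.76 in siLoxL1 and -1.065 in siLoxL2, both called lower. Lox gave 0.68 and 0.83 in these groups, both called higher, and Loxl1 gave -0.98 (called lower) and 0.18 (not called). All 9 fibroblast markers were above background on all 16 arrays, while the epithelial markers Epcam, Cdh1, Sftpc, Sftpa1, Sftpb and Nkx2-1 were above background on 0 arrays. The other two epithelial markers had signal: Aqp5 was above background on all 16 arrays, with a mean level of -2.77 in scr, -3.05 in siLox, 0.77 in siLoxL1 and 0.73 in siLoxL2, and Scgb1a1 on 4, 2, 4 and 4 arrays of these groups, at -4.45 to -4.23. Array number limits the precision of every value. The replicate 4 arrays of slide 1 lay nearest the opposite group: of the 37 enzymes, scr replicate 4 was the scr array closest to the siLox mean for 25 (67.6%, against 49.4% over all genes), and siLox replicate 4 the siLox array closest to the scr mean for 21 (56.8%, against 44.6%).

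Promoter sequences were searched for the letters of known response elements. RefSeq promoters (build GRCm38.p6, 250 bases before to 50 bases after a gene's start) were matched for 27 of the 37 genes, 13 cytosolic and 14 mitochondrial. The C/EBP-ATF letters TGATGNAA, read on both strands, occurred in promoters of 5 of the 13 cytosolic genes (Aars, Gars, Iars, Tars and Yars) and 0 of the 14 mitochondrial ones. Of all 27025 genes with a promoter, 4.51% held them. The stricter letters TTGCATCA overlap with the first motif, since they are the reverse complement of TGATGCAA. They occurred in 4 of 13 (Aars, Iars, Tars and Yars), in 0 of 14 and in 1.03% of all genes. The matches are printed because they lie in genes of the amino acid response. Each line is 5′ to 3′ on the gene's strand with the matched letters in capitals, and a matched letter string is not a tested binding site.
Aars (chr8:111033700-111033767, plus strand, alanine): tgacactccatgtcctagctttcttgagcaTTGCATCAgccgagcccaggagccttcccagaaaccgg
Gars (chr6:55037941-55038008, plus strand, glycine): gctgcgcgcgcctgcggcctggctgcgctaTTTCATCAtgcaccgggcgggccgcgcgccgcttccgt
Tars (chr15:11399636-11399703, minus strand, threonine): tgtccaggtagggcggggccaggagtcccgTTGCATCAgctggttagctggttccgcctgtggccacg
Iars (chr13:49682107-49682154, plus strand, isoleucine): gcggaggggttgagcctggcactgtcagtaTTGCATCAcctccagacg
Yars (chr4:129189876-129189927, plus strand, tyrosine): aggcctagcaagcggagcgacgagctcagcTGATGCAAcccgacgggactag

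The first matched letter lay 112 bases before the start in Aars, 30 in Gars and 15 in Tars, and 7 and 3 bases after it in Iars and Yars. Aars held a further TGATGNAA match 9 bases after its start, not printed. Other motifs were also searched, on both strands. The interferon-stimulated response element GAAANNGAA was found in promoters of 1 of 13 cytosolic genes (Qars), 0 of 14 mitochondrial genes and 9.76% of all genes. The gamma-activated site TTCNNNGAA was found in 2 of 13 (Aars and Kars), in 1 of 14 (Nars2) and in 9.55% of all genes. The E-box CACGTG was found in 4 of 13, 1 of 14 and 8.09%. Among the 5 genes printed above, only Gars passed the test between siLox and scr described next.

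Within slide 1, the comparison of siLox with scr asked what loss of Lox did to the fibroblasts' RNA. Among the synthetases, 9 of 37 passed the test, and all but Fars2 changed by less than 0.5 on the log2 scale. Of the 20 cytosolic genes, 3 fell (Gars, Qars and Eprs), 1 rose (Dars) and 16 did not pass, with a median difference of -0.13. Of the 17 mitochondrial genes, 5 rose (Fars2, Tars2, Vars2, Yars2 and Aars2), 0 fell and 12 did not pass, with a median of 0.07. Over all 22585 genes tested the median was -0.05, and 25% were called, 13.6% as lower and 11.5% as higher. The 3 of 20 cytosolic genes that fell are near that background, and the 5 of 17 mitochondrial genes that rose are above the 11.5% of all genes. The groups did not overlap for 6 cytosolic and 6 mitochondrial genes, 12 of 37, against 30.6% of all genes. In such bulk samples, fewer cells of a type and less RNA per cell cannot be told apart.

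**Figure D1:**
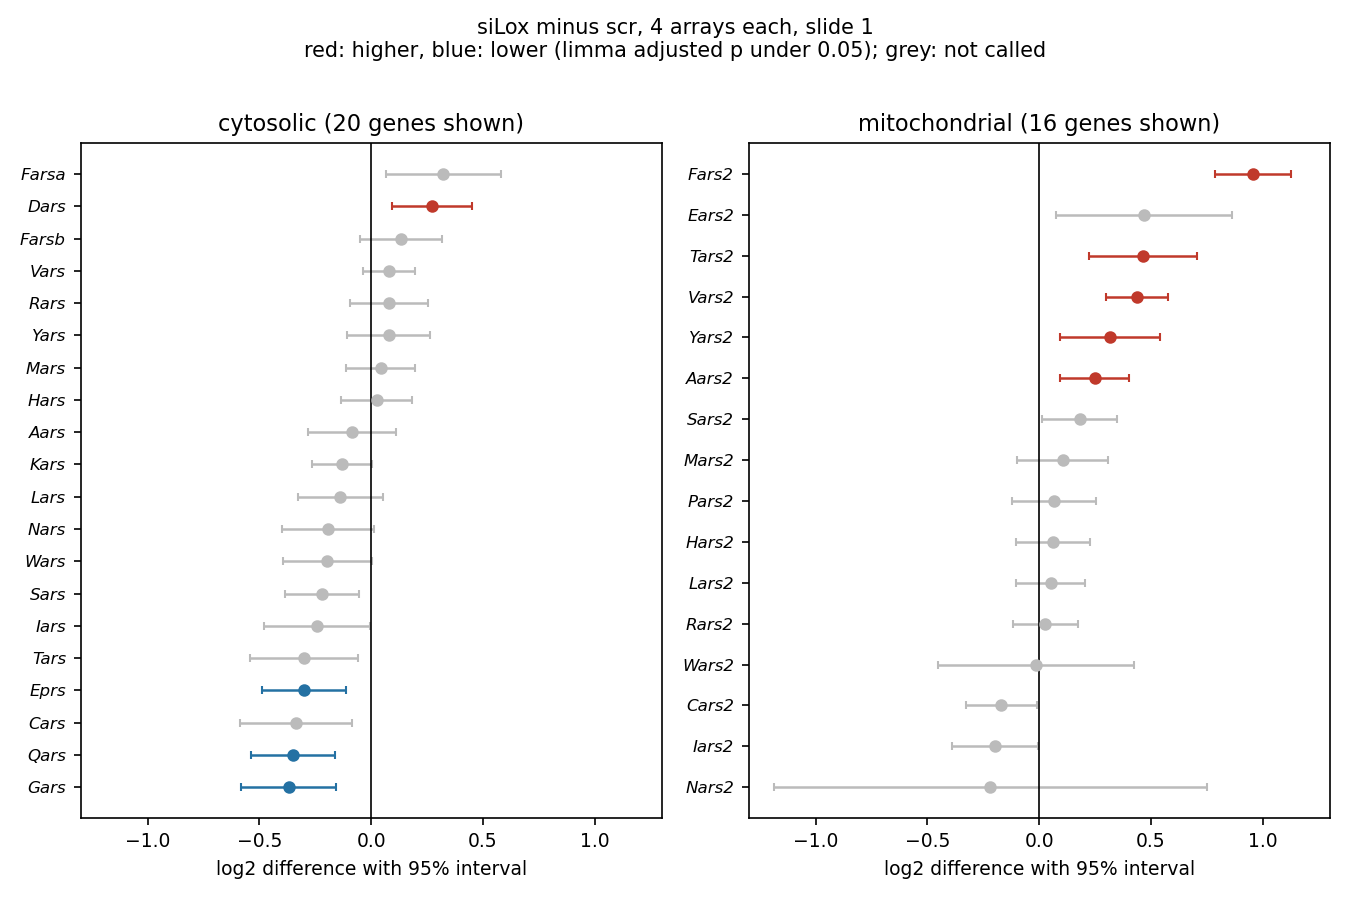
Difference of siLox minus scr (log2, x axis) with its 95% interval for 20 cytosolic and 16 mitochondrial synthetase genes, 4 arrays a group on slide 1. Fars2 stands farthest from 0 at 0.96, and Gars, Qars and Eprs are the 3 called lower genes.

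Gars, the glycine enzyme, gave the largest fall. Its probe lies at chr6:55029377-55029436 (mm9, plus strand); no gene annotation of that build was used here, so exons and untranslated regions are not stated for any probe. Its level, the log2 intensity minus the 75th percentile of the array, was 7.39, 7.25, 7.25 and 7.06 in scr and 6.74, 6.86, 6.86 and 7.02 in siLox. The groups did not overlap, with scr replicate 4 and siLox replicate 4 closest to each other, and the difference was -0.37 (SE 0.09, limma adjusted p = 0.0281), a fold of 0.774. Qars, which charges glutamine tRNA, read 4.96, 4.84, 4.79 and 4.64 in scr and 4.41, 4.42, 4.44 and 4.57 in siLox. It fell by 0.35 (SE 0.08, adjusted p = 0.0237), again without overlap. Eprs, the fused enzyme for glutamate and proline, was at 2.45, 2.21, 2.41 and 2.29 in scr and at 1.91, 2.00, 2.08 and 2.16 in siLox. It fell by 0.30 (SE 0.08, adjusted p = 0.0343).

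Dars, the aspartate enzyme, was the cytosolic exception. It read 0.41, 0.37, 0.61 and 0.63 in scr and 0.83, 0.82, 0.75 and 0.71 in siLox, all 4 siLox arrays lying above scr, and rose by 0.27 (SE 0.08, adjusted p = 0.0396). Cars (cysteine) gave -0.34 (SE 0.11), as large a difference as those called, but missed the threshold (adjusted p = 0.0548). Tars (threonine) at -0.30, Iars (isoleucine) at -0.24, Sars (serine) at -0.22, Wars at -0.20 and Nars (asparagine) at -0.19 did not pass either, nor did Lars (leucine, -0.14), Kars (-0.13) and Aars (alanine, -0.09). Kars has a predicted near copy on the array under another name, so its signal may be shared. On the positive side, Farsa and Farsb, the subunits of the phenylalanine enzyme, gave 0.32 and 0.13. Vars (valine), Rars (arginine) and Yars (tyrosine) each gave 0.08, Mars (methionine) 0.04 and Hars (histidine) 0.02, all without passing. Wars read 5.63, 5.60, 5.51 and 5.33 in scr and 5.24, 5.35, 5.25 and 5.44 in siLox, and the ranges thus overlap.

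Fars2, the mitochondrial phenylalanine enzyme, gave the largest change of the 37. Its probe lies at chr13:36629402-36629461 (mm9, plus strand). It read 2.55, 2.75, 2.75 and 2.86 in scr and 3.65, 3.72, 3.70 and 3.67 in siLox. The groups were far apart beside their spread, and the rise of 0.96 (SE 0.07, adjusted p = 0.00102) is a fold of 1.94. Vars2 (valine) was at -0.80, -0.68, -0.80 and -0.68 in scr and at -0.32, -0.23, -0.31 and -0.36 in siLox, a rise of 0.44 (SE 0.06, adjusted p = 0.00632). The probe lies at chr17:35792741-35792800 (minus strand). The second, dimmer Vars2 probe gave 0.16 (SE 0.11) and did not pass (adjusted p = 0.306).

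Tars2 (threonine) read 3.66, 3.97, 3.77 and 4.09 in scr and 4.38, 4.39, 4.37 and 4.20 in siLox, and rose by 0.46 (SE 0.10, adjusted p = 0.0216). A second Tars2 probe gave 0.51 (SE 0.09, adjusted p = 0.0159 in a fit of all probes), so that both of its probes rose. Yars2 (tyrosine) was at 2.62, 2.79, 2.80 and 3.00 in scr and at 3.23, 3.16, 3.11 and 2.97 in siLox. Here siLox replicate 4 fell below scr replicate 4, and the rise of 0.32 (SE 0.10) passed narrowly (adjusted p = 0.0482). Aars2 (alanine) rose by 0.25 (SE 0.07, adjusted p = 0.0342), its siLox arrays at 1.48 to 1.59 above scr at 1.15 to 1.36.

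The other mitochondrial genes did not pass. Ears2 (glutamate) gave 0.47 with a wide interval, 0.08 to 0.86, since scr itself ran from -0.14 to 0.75. Sars2 gave 0.18, Mars2 0.11, Pars2 0.07, Hars2 0.06, Lars2 0.05 and Rars2 0.03. Wars2 (-0.01), Cars2 (-0.17), Iars2 (-0.20) and Nars2 (-0.22, interval -1.19 to 0.75) lay below 0.

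**Figure D2:**
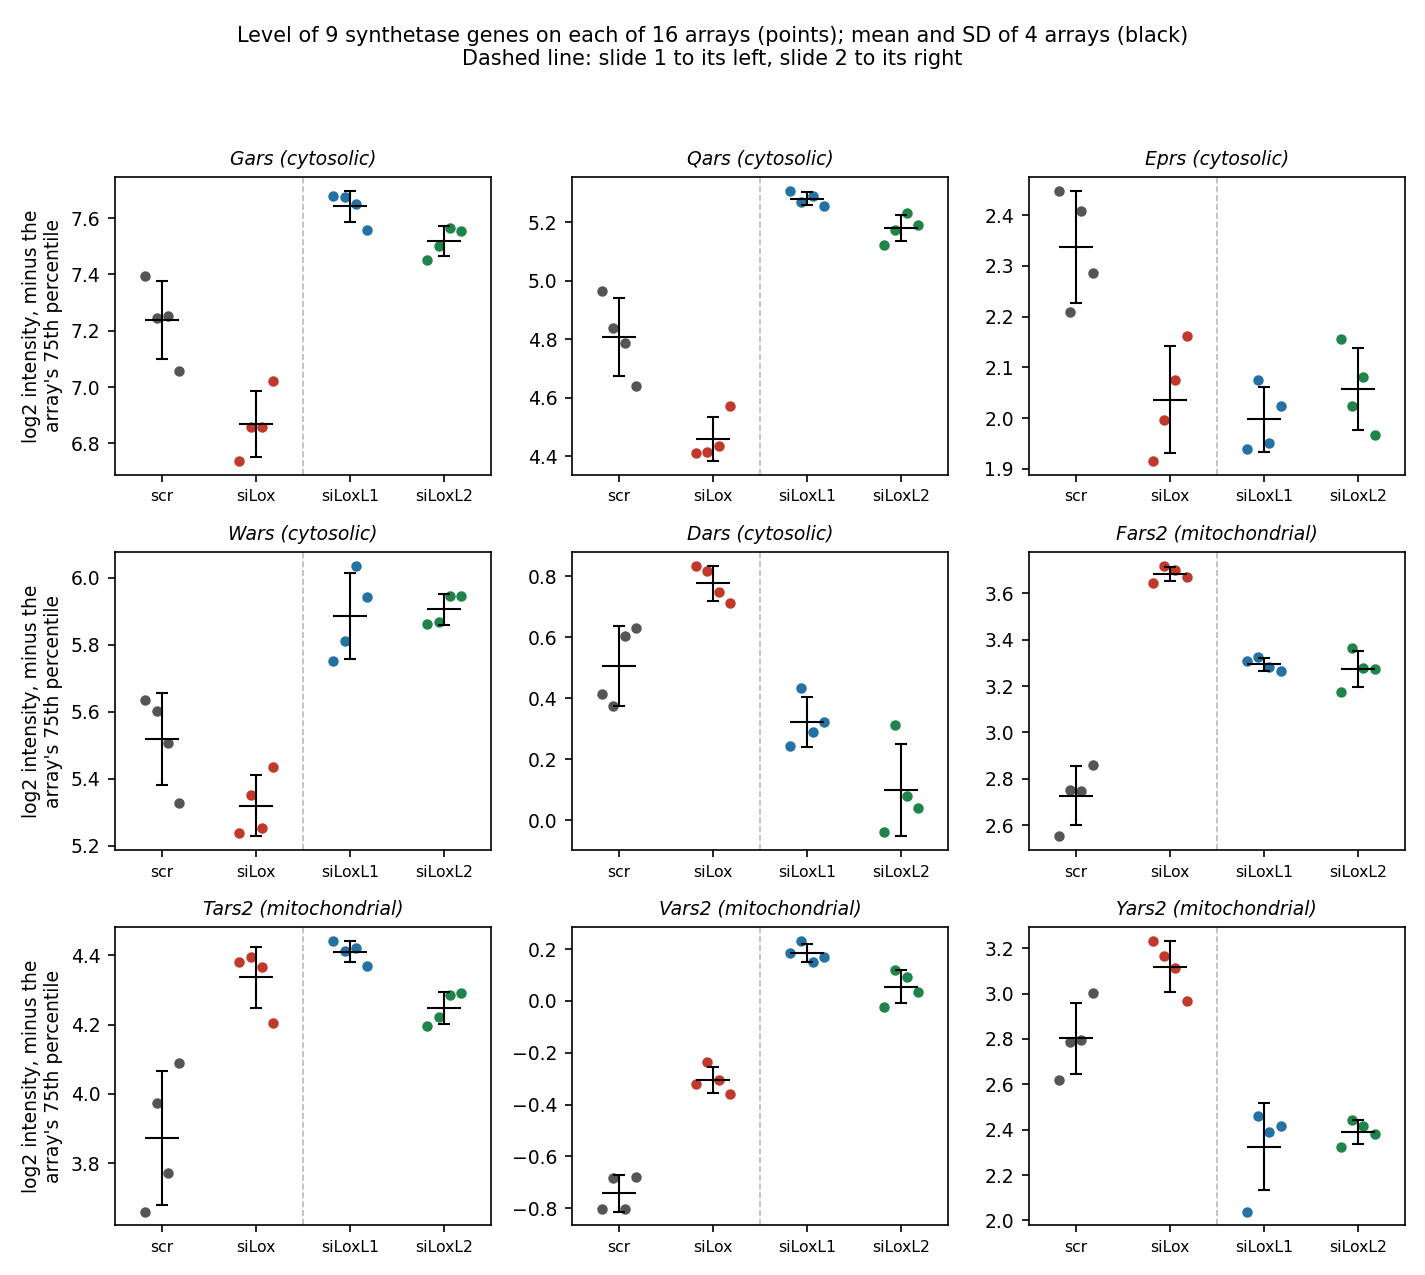
Level on each array (log2 intensity minus the array's 75th percentile, y axis) of 9 synthetase genes in scr, siLox, siLoxL1 and siLoxL2, with the mean and SD of 4 arrays in black and a dashed line between the slides. Fars2 in siLox (3.65 to 3.72) stands clear of scr (2.55 to 2.86), while Wars overlaps.

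For Fars2 and Vars2 the call held in 16 of 17 alternatives, and for Tars2 in 12 of 17. Gars, Eprs and Aars2 kept theirs in 9 of 17, Qars in 10, and Dars and Yars2 in 7, while the sign of each of these 9 genes held in all 17. The counts turn on single libraries: 11 cytosolic genes were called without scr replicate 4 (9 lower and 2 higher), 5 without siLox replicate 4, 1 without scr replicate 1 or 2, and 0 without scr replicate 3 or siLox replicate 1, 2 or 3. Mitochondrial calls were 6 without scr replicate 4, 5 without siLox replicate 4, 3 without scr replicate 1 or 2, and 2 without scr replicate 3 or siLox replicate 1, 2 or 3. Calls over all 22585 genes moved with the array left out too, from 1838 without scr replicate 3 to 7811 without scr replicate 4. Without scr replicate 4, the cytosolic genes that fell were Cars, Eprs, Gars, Iars, Nars, Qars, Sars, Tars and Wars, with differences of -0.43 to -0.24. The cytosolic genes that rose at that setting were Dars (0.31) and Farsa (0.41).

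Averaged over the 20 cytosolic genes, the level per array was 3.79 to 3.91 in scr and 3.73 to 3.79 in siLox. The mean of the 17 mitochondrial genes was 0.66 to 0.89 in scr and 0.84 to 0.97 in siLox. Each mean overlapped between the groups. Their difference within an array, an index with no absolute meaning because different probes are not comparable in level, was 3.26, 3.09, 3.14 and 2.90 in scr and 2.82, 2.77, 2.88 and 2.88 in siLox. The index was lower on every siLox array than on every scr array, with scr replicate 4 the scr array nearest to siLox. On slide 2 it was 3.00 to 3.04 in siLoxL1 and 3.05 to 3.11 in siLoxL2.

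**Figure D3:**
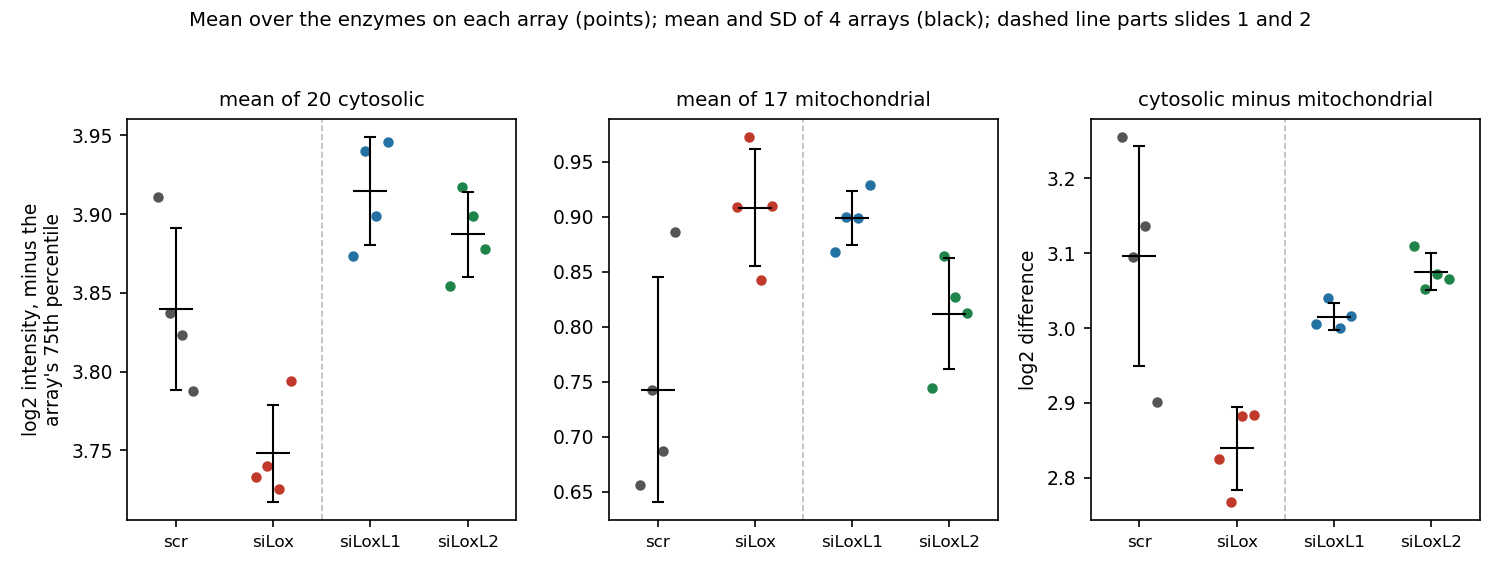
Mean level on each array over the 20 cytosolic genes (left), the 17 mitochondrial genes (middle) and the difference between these means (right, log2), by group, with the mean and SD of 4 arrays in black and a dashed line between the slides. The index on the right is 2.77 to 2.88 in siLox and 2.90 to 3.26 in scr.

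Enzymes for the same amino acid were also compared, as a description. The mitochondrial gene was set against its cytosolic partner on each array, with Eprs as partner of Ears2 and Pars2, and Fars2 against Farsa and Farsb. In siLox against scr this relative level shifted upward in 15 of 18 pairs, by a median of 0.21 over the 18. The groups did not overlap in 5 of the 18 pairs, all shifted upward, beside 30.6% of all genes, each taken alone. Pairs of other genes were not counted, and pairs that share Eprs or Fars2 are not independent. Ears2 against Eprs shifted by 0.77, Fars2 against Farsb by 0.82 and against Farsa by 0.63, and Vars2 against Vars by 0.36, each without overlap. Tars2 against Tars shifted by 0.76, but its groups overlapped. Rars2 against Rars (-0.05) and Nars2 against Nars (-0.02) lay below 0. In siLoxL1 against siLoxL2 the shift was upward in 12 of 18 pairs, with a median of 0.08. Of the 18 pairs 3, all shifted upward, did not overlap, beside 20.3% of all genes, each taken alone.

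The enzymes were also counted by structural class and by membership of the complex. These counts for siLox against scr stand beside 11.5% of all genes called higher and 13.6% called lower. The same shares hold for the lists and markers that follow in that comparison. Of 19 class I synthetases 2 rose and 2 fell, with a median of 0.03, and of 18 class II synthetases 4 rose and 1 fell, with a median of 0.05. Among the 8 cytosolic enzymes of the multisynthetase complex 1 rose (Dars) and 2 fell (Eprs and Qars), with a median of -0.13, and among the 12 outside it 0 rose and 1 fell (Gars), with a median of -0.14. Of the complex's 3 scaffold subunits, Eef1e1 rose by 0.44 (SE 0.09, adjusted p = 0.0168), whereas Aimp2 (0.19) and Aimp1 (0.02) did not pass. Of 7 synthetase relatives, selenocysteine enzymes and tRNA proofreading genes, 1 fell: Pstk, which phosphorylates seryl-tRNA for selenocysteine, by 0.18 (SE 0.05, adjusted p = 0.0335).

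Genes of the wider amino acid response moved in both directions. Of the 13 cytosolic synthetases commonly named as ATF4 targets, 0 rose and 2 fell (Eprs and Gars), with a median of -0.20. Of 32 other genes of the response, 6 rose and 10 fell, with a median of -0.35. The cystine transporter Slc7a11 rose by 0.93 (SE 0.11, adjusted p = 0.00473), the phosphatase subunit Ppp1r15a by 1.02 (SE 0.30, adjusted p = 0.0425) and the transcription factor Atf3 by 0.99 (SE 0.27, adjusted p = 0.0343). Vldlr, a lipoprotein receptor, fell by 0.89 (SE 0.25, adjusted p = 0.0373). Atf4 itself gave 0.26 (SE 0.12) and did not pass (adjusted p = 0.133).

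Other genes of mitochondrial translation were counted in the same way. Of 19 translation factors, tRNA-modifying enzymes and amidotransferase subunits measured, 6 rose and 1 fell, with a median of 0.15. The tRNA isopentenyltransferase Trit1 rose by 0.72 (SE 0.21, adjusted p = 0.0425), the release factor Mtrf1l by 0.58 (SE 0.09, adjusted p = 0.00892), the tRNA thiouridylase Trmu by 0.51 (SE 0.12, adjusted p = 0.0247) and the ribosome recycling factor Mrrf by 0.43 (SE 0.10, adjusted p = 0.0246). Of 6 cytosolic elongation factors 0 passed in either direction, with a median of -0.15: Eef1g gave -0.20 and Eef1b2 -0.18.

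Markers of fibroblasts and of other cell types were read on the same arrays. All 9 fibroblast markers were below 0 in siLox against scr, with a median of -0.46, and 4 of them fell. Their mean level ran from 4.77 to 5.20 in scr and from 4.06 to 4.83 in siLox. Of 11 leukocyte and macrophage markers measured 1 rose (Marco, by 1.08) and 0 fell, with a median of 0.45 and a mean level of -1.24 to -0.13 in scr and -0.22 to 0.01 in siLox. Of 6 pericyte and smooth muscle markers 4 fell, with a median of -0.36, and of 5 mesothelial markers 1 rose and 3 fell. Of 6 endothelial and 2 detected epithelial markers 0 passed. The leukocyte markers Ptprc, Csf1r and Itgam were above background on all 16 arrays. The part of these cell types in the synthetase differences was not tested.

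Within slide 2, siLoxL1 was set against siLoxL2, which asks whether losing either of these lysyl oxidases leaves the synthetases in a different state. Of 20 cytosolic genes 0 passed, with a median difference of 0.03, and of 17 mitochondrial genes 1 rose, with a median of 0.05. Over all genes 8.82% were called, 2.71% as lower and 6.11% as higher, and the median was 0.03. The gene that rose was Tars2, at 4.44, 4.41, 4.42 and 4.37 in siLoxL1 and 4.20, 4.22, 4.28 and 4.29 in siLoxL2. The groups did not overlap, and the difference was 0.16 (SE 0.04, limma adjusted p = 0.0441). Its second probe gave -0.05 (SE 0.07, adjusted p = 0.679), and the call held in 2 of 17 alternatives: it was lost when any 1 of the 8 arrays was left out (siLoxL1 replicate 1, 2, 3 or 4, siLoxL2 replicate 1, 2, 3 or 4).

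**Figure D4:**
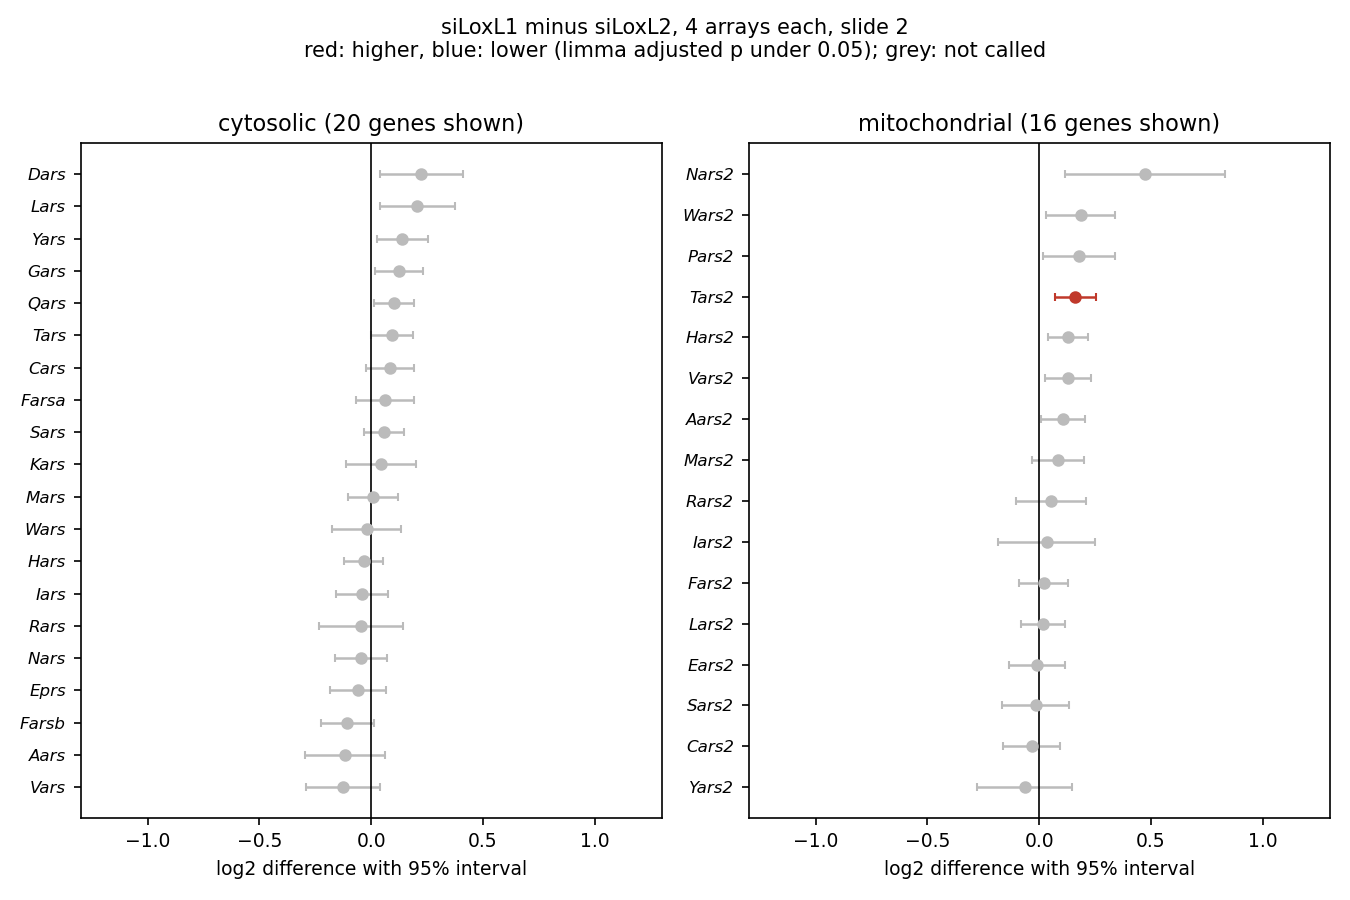
Difference of siLoxL1 minus siLoxL2 (log2, x axis) with its 95% interval for 20 cytosolic and 16 mitochondrial synthetase genes, 4 arrays a group on slide 2, on the same x scale as the plot of siLox minus scr. All genes shown but Nars2 (0.48) lie between -0.13 and 0.22, and only Tars2 (0.16) is called.

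The intervals on slide 2 are narrow enough to bound most genes. For Fars2, the gene with the largest change in siLox, the difference between siLoxL1 and siLoxL2 was 0.02 with a 95% interval of -0.09 to 0.13. For Gars the interval was 0.02 to 0.23, for Eprs -0.19 to 0.07, and for Qars 0.01 to 0.19. Qars did not overlap between the groups, at 5.31, 5.27, 5.29 and 5.26 in siLoxL1 and 5.12, 5.17, 5.23 and 5.19 in siLoxL2, but did not pass (adjusted p = 0.135). Non-overlap was common in this comparison: it held for 9 of the 37 synthetases and for 20.3% of all genes. Dars (0.22) and Lars (0.21) gave the largest cytosolic differences, with adjusted p = 0.122 for Dars. Without siLoxL2 replicate 2, Dars gave 0.30 and passed (adjusted p = 0.048), and without siLoxL1 replicate 1 Lars gave 0.27 and passed (adjusted p = 0.042).

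Most interferon-response genes were lower in siLoxL1, and the brightest probe of the interferon-inducible Wars did not pass. Of 21 interferon-response genes measured, 0 were higher and 19 were lower in siLoxL1, with a median of -1.36. Mx1, an antiviral GTPase, was lower, with a difference of -2.78 (SE 0.49, adjusted p = 0.0173), and Ifit3 gave -2.02 (SE 0.24, adjusted p = 0.00604). The brightest Wars probe (chr12:110098245-110098304, mm9, minus strand) read 5.75, 5.81, 6.04 and 5.94 in siLoxL1 and 5.86, 5.87, 5.95 and 5.94 in siLoxL2. These values overlap, and the difference was -0.02 with an interval of -0.17 to 0.13. A second, dimmer Wars probe (chr12:110104366-110104425, minus strand) read 1.29, 1.24, 1.18 and 1.26 in siLoxL1 and 1.45, 1.56, 1.43 and 1.59 in siLoxL2. It was lower without overlap, with a difference of -0.26 (SE 0.05, adjusted p = 0.0293 in a fit of all probes). The difference between the probes was not tested. In siLox against scr, where 4 interferon-response genes rose and 3 fell, the same probes gave -0.20 and -0.15 and neither passed.

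The counts of the remaining lists on slide 2 stand beside 6.11% of all genes called higher and 2.71% called lower. Of 32 other amino acid response genes 1 rose and 6 fell, with a median of -0.07. Pycr1, of proline synthesis, fell by 0.33 (SE 0.05, adjusted p = 0.00941) and Chac1, which degrades glutathione, by 0.31 (SE 0.06, adjusted p = 0.0253), and Eif2ak4, the kinase that senses uncharged tRNA, rose by 0.26 (SE 0.04, adjusted p = 0.0154). Of the 3 scaffold subunits, the 7 synthetase relatives, the 19 mitochondrial translation genes and the 6 cytosolic elongation factors 0 passed in limma's test. Of 9 fibroblast markers 0 passed. Of 11 leukocyte markers 1 fell (Cd68, by 0.27), of 6 endothelial markers Vwf fell by 0.50, and of 5 mesothelial markers 1 rose (Wt1, by 0.26). The endothelial marker Tek gave -0.86 and was called lower, but it was above background on 0 scr, 0 siLox, 3 siLoxL1 and 4 siLoxL2 arrays and so passed the filter through siLoxL2 alone.

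The comparisons of siLoxL1 and of siLoxL2 with scr run between the slides, so that siRNA and slide cannot be told apart in them, and they share the scr arrays. Called genes made up 62% of all genes for siLoxL1 (41.5% higher, 20.6% lower) and 61.2% for siLoxL2 (39.4% higher, 21.7% lower), and the medians of all genes were 0.19 and 0.17. In siLoxL1 7 cytosolic genes were higher and 3 lower, and 7 mitochondrial genes higher and 4 lower. In siLoxL2 the counts were 8 and 4, and 7 and 3. The groups did not overlap for 21 of 37 synthetases in siLoxL1, against 58.3% of all genes, and for 22 of 37 in siLoxL2, against 57.3%. Of 9 fibroblast markers, 5 were higher and 3 lower in siLoxL1, and 4 higher and 3 lower in siLoxL2.

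The cytosolic balance between slides depended on the scaling. With quantile normalization 1 cytosolic gene was higher and 7 lower in siLoxL1, and 2 higher and 7 lower in siLoxL2. The cytosolic medians were -0.13 and -0.11 in place of 0.05 and 0.03. Of all 22585 genes under that scaling, 7344 were higher and 5795 lower in siLoxL1, and 7096 higher and 6047 lower in siLoxL2. Genes called in the same direction under either scaling were Yars (higher) and Eprs, Farsb and Mars (lower) for siLoxL1, and Hars and Yars (higher) and Dars, Eprs, Mars and Tars (lower) for siLoxL2. Gars was called higher by 0.28 in siLoxL2 but gave -0.01 under quantile normalization. Wars was higher than in scr by 0.37 in siLoxL1 and 0.39 in siLoxL2 and was not called under quantile normalization. The second Wars probe gave -0.05 (adjusted p = 0.533) in siLoxL1 and 0.21 (adjusted p = 0.0333) in siLoxL2. In the same comparisons all 21 interferon-response genes were lower, with medians of -4.48 and -3.01.

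Several mitochondrial genes were called under both scalings. Vars2 was higher by 0.93 in siLoxL1 and 0.80 in siLoxL2, and by 0.91 and 0.79 under quantile normalization. These values rest on the brighter probe: the second Vars2 probe gave 0.22 (adjusted p = 0.0154) and 0.09 (adjusted p = 0.219), and the mean over probes 0.57 and 0.44. Fars2 (0.57 and 0.55), Iars2 (0.43 and 0.39) and Cars2 (0.30 and 0.33) were higher, and Mars2 (-0.53 and -0.62), Yars2 (-0.48 and -0.41) and Pars2 (-0.33 and -0.51) were lower, each with the same call under both scalings. The second Iars2 probe gave 0.10 and 0.05 and was not called, while the second probes of Cars2 (0.45 and 0.64) and Pars2 (-0.70 and -0.68) were called in the same direction as the first. Yars2, which rose in siLox, thus lay lower on slide 2 than in scr.

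**Figure D5:**
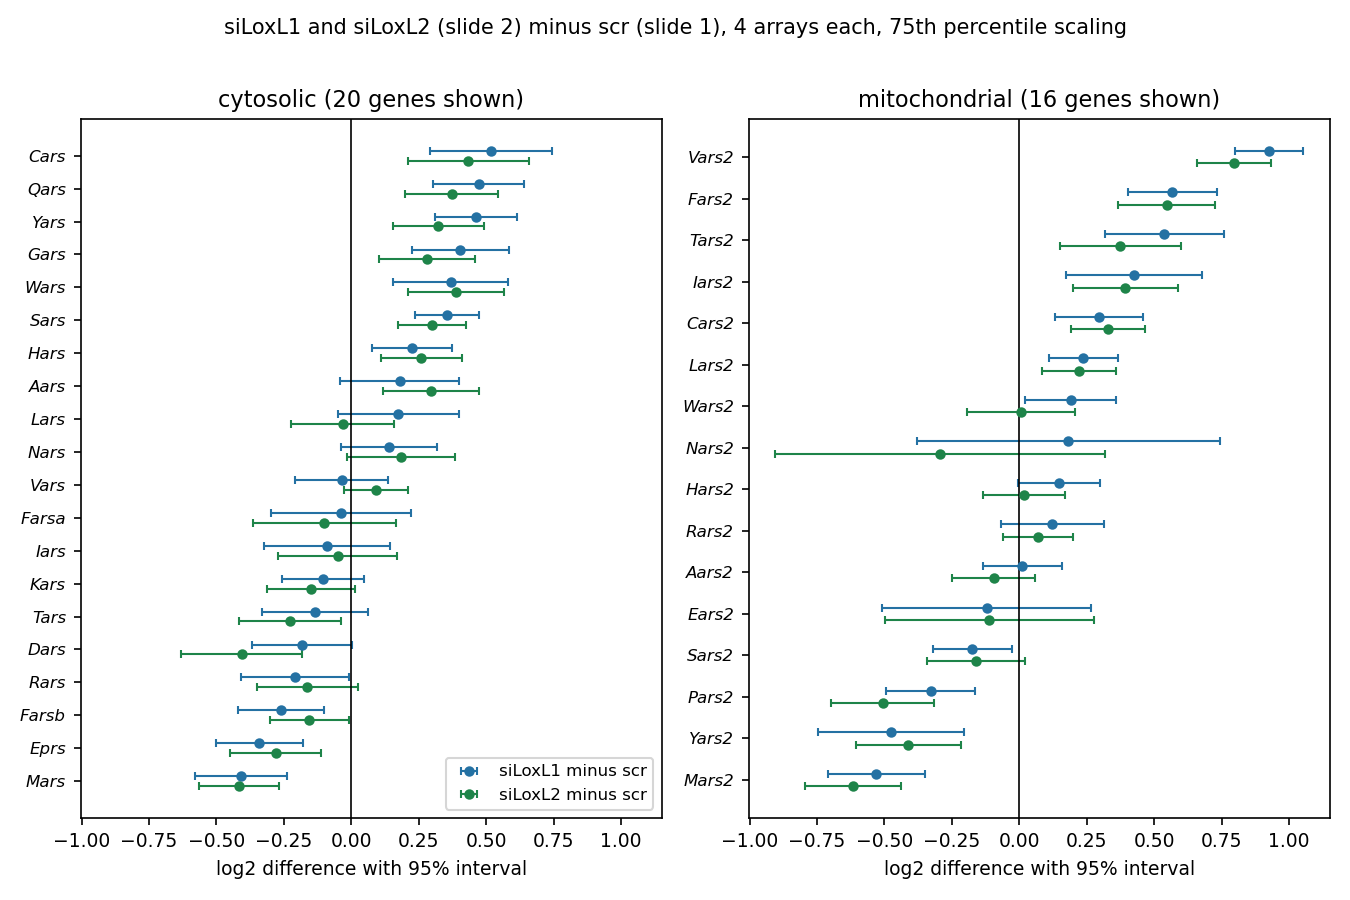
Difference of siLoxL1 (blue) and of siLoxL2 (green) minus scr (log2, x axis) with 95% intervals for 36 synthetase genes, 4 arrays a group, scaled to the 75th percentile. Both series share the scr arrays and compare slide 2 with slide 1; Vars2 is highest (0.93 and 0.80) and Mars2 lowest (-0.53 and -0.62).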

How the data were processed

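Total RNA labelled with Cy3 was hybridised to 16 one-colour arrays, 4 for each of scr, siLox, siLoxL1 and siLoxL2. Per the file headers, the authors' scanner values are intensity values per spot, background-subtracted and detrended by Agilent Feature Extraction 10.7.3.1, with probe positions in mouse build mm9. The other scanner columns used are 0 or 1 flags deposited for each spot. The authors' deposited value table holds log2 values, quantile normalized between arrays (tested on the table), and served as an alternative. Outlier spots were left out, and each array's 75th percentile over non-control probes was subtracted from its log2 intensity. A probe was kept where 1 group or more had it well above background on each of 4 arrays, and the brightest stood for a gene. Probe names differ between the slides' files for 3475 probes, and those of slide 1 were used.

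Each comparison was fitted on its own 8 arrays with limma 3.58.1 (lmFit, eBayes) in R 4.3.3, with Benjamini-Hochberg adjustment over 22585 genes and a threshold of 0.05. The fit was tested on simulated data. For siLox against scr it recovered 12% of 50 genes shifted by 0.3 on the log2 scale, 26% of those shifted by 0.5 and 76% of those shifted by 1. That simulation gave 107 calls, against 5656 in the data, so these shares may not carry over. The members, lists, tests and the rule for naming genes were chosen with earlier results of these data known. Single values of 1 member are not reported here, although it counts in the totals and medians; every other member is named, and array values are given for Wars, Eprs and up to 8 called members per comparison within a slide. Per other list, up to 4 called members with the largest difference, or 2 where 0 passed, could be named; the promoter windows printed (trimmed to 30 bases around a match and 25 past the start), the genes named without scr replicate 4, Atf4, the targeted genes and the marker examples were chosen after values were seen. Replicate numbers were not used as pairs, since same-number deviations did not correlate above 0.1 in every pair. Alternatives were normexp background correction, quantile and median scaling, the value table, no filter on dim probes, the mean over probes, all 16 arrays in 1 fit, a replicate block and leaving out arrays.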

Additional observations from a re-analysis of the deposited data

Results flagged for a closer look

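Of 148 sets of 4 arrays (37 genes in 4 groups), 7 held an array whose gap to the others passed Dixon's 95% critical value, where chance gives about 1 in 20. On slide 1, siLox replicate 4 stood apart for Qars at 4.57 (others 4.41 to 4.44) and for Tars2 at 4.20 (others 4.37 to 4.39), in each case toward scr, and scr replicate 4 for Vars at 2.71 (others 2.66 to 2.67). On slide 2, siLoxL1 replicate 1 stood apart for Iars2 at 1.42 (others 1.75 to 1.81), for Yars2 at 2.04 (others 2.39 to 2.46) and for Wars2 at -1.48 (others all at -1.60), and siLoxL2 replicate 2 for Farsa at 3.69 (others 3.51 to 3.52).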

How the results depend on the processing

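In siLox against scr, the 4 cytosolic calls became 10 with all 16 arrays in 1 fit, 7 with normexp, 2 with median scaling, 0 without the filter on dim probes and 10 without replicate 4 of both groups. The 5 mitochondrial calls became 8 with all 16 arrays and 3 without the filter, and the 5656 calls over all genes became 9722 and 2964. Of all genes, 3017 were called higher and 3231 lower with normexp, and 2339 and 2870 with median scaling. Without replicate 4 of both groups these counts were 3663 and 4122. With the replicate block, cytosolic and mitochondrial calls were 0 and 0, and 3 of all genes were called; same-number deviations correlated at -0.186 to -0.003, and 0 of 8 arrays correlated best with their own number. Leaving out 1 array gave 0 to 11 cytosolic, 2 to 6 mitochondrial and 1838 to 7811 calls over all genes. Their medians stayed at -0.18 to -0.09 and 0.05 to 0.14 in all alternatives.

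In siLoxL1 against siLoxL2, the mitochondrial call became 0 with all 16 arrays, the mean over probes, no filter, quantile normalization, the replicate block, the value table and without replicate 4 of both groups. Normexp gave 1 cytosolic call (Dars), and median scaling moved the mitochondrial median to 0.11. The 1992 calls over all genes became 907 with all 16 arrays, 654 without the filter, 853 with the replicate block (same-number deviations correlated at 0.121, 0.216, 0.126 and 0.043, over 0.1 in 3 of 4 pairs, and 7 of 8 arrays correlated best with their own number, a hint of pairing from the data that the labels do not give) and 166 without replicate 4 of both groups. Leaving out 1 array gave 0 to 1 cytosolic, 0 to 1 mitochondrial (Nars2, which passed the filter through siLoxL1 alone, not Tars2) and 612 to 1411 calls. The higher share of calls, 69.3%, was 83.1% with median scaling and 56.1% with quantile normalization.

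In the comparisons with scr between slides, calls without the filter, over more genes, were 21403 (siLoxL1) and 20724 (siLoxL2). Cytosolic medians were -0.13 and -0.11 under quantile normalization and in the value table, and the mitochondrial median in siLoxL2 was -0.08 with median scaling. Gars in siLoxL2 turned to -0.01 under quantile normalization and in the value table. The higher share of calls, 66.9% in siLoxL1 and 64.5% in siLoxL2, was 45.4% and 43.9% with normexp and 55.9% and 54.0% with quantile normalization. Over the alternatives of the 9 genes shown by array, calls were lost with the sign kept 50 times in siLox against scr. They were lost in this way 15 times between siLoxL1 and siLoxL2, and 7 and 9 times between slides. A further 2 calls in siLoxL2 against scr, both of Gars, were lost with the sign reversed. The cause of these shifts was not tested. Signal over background limits Nars2 alone.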
